A study of Mus musculus with 2 samples.

Results

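The interleukin-1 (IL-1) family was described in the splenocytes of mice with GPI-induced arthritis, a model in which immunization against glucose-6-phosphate isomerase (GPI), a ubiquitous enzyme of glycolysis, leads to joint inflammation. Its members were taken by gene symbol, with every probe set that carries exactly 1 gene symbol in the platform annotation. The list holds 10 genes, 5 of them ligands (Il1a, Il1b, Il1rn, Il1f9 and Il18) and 5 receptor chains (Il1r1, Il1r2, Il1rap, Il1rl1 and Il18r1). Of these, 9 were measured, by 13 of the 20380 probe sets with 1 symbol (7 for ligands, 6 for receptors), among 12393 genes in all. Il1rl1, the receptor chain for interleukin-33, has no probe set with a single symbol there and is not analysed here.

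Total RNA of splenocytes was read on Affymetrix mouse 430A2.0 GeneChips, on which a group of short oligonucleotides, the probe set, gives 1 signal (a linear intensity) per transcript. Both groups were males of the DBA/1 strain aged 6 to 8 weeks and were studied at day 10 after intradermal immunization in complete Freund's adjuvant, an oil emulsion with killed mycobacteria that the controls therefore received too. The GPI-immunized mice were given 300 μg of recombinant human GPI fused to glutathione S-transferase (GST), and the control-immunized mice 100 μg of GST alone. Spleens of 3 mice per group were collected, and neither the labels nor the methods say whether their RNA was pooled. Each group is 1 array, so no test was possible, no p-value is given, and every ratio (GPI-immunized signal over control-immunized signal) describes these 2 arrays.

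IL-1α and IL-1β, encoded by Il1a and Il1b, bind the receptor chain Il1r1, which then recruits the accessory chain Il1rap and signals through the adaptor MyD88 to nuclear factor-κB. The pathway is braked at several points, by the receptor antagonist Il1rn, which occupies Il1r1 without signalling, and by the decoy receptor Il1r2, which binds IL-1 but lacks a signalling domain. Il1f9 encodes IL-36γ, which acts on a receptor of its own that shares Il1rap, and Il18 encodes interleukin-18, an inducer of interferon-γ that binds Il18r1. Monocytes, macrophages and neutrophils are well known sources of IL-1β in an inflamed tissue.

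Because Il1b, Il1f9 and Il1r2 carried the largest ratios of the 9 measured members, the 120 bases before their annotated starts are shown. Those of Il1a, the neighbour of Il1b on chromosome 2, are added. The sequences come from RefSeq (assembly GRCm38.p6) and run 5′ to 3′ on the strand of the gene. Capitals mark matches, on either strand, to a TATA box (TATAAA), a PU.1 core (GAGGAA) or an AP-1 site (TGANTCA). None of the matches shown overlaps another.
Il1b, minus strand, chr2:129371140-129371259: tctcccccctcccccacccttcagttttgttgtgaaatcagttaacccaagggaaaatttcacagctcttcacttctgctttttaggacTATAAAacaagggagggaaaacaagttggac
Il1a, minus strand, chr2:129309973-129310092: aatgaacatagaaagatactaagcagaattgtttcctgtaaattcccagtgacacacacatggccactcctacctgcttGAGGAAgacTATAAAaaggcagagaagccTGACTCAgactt
Il1f9, plus strand, chr2:24186356-24186475: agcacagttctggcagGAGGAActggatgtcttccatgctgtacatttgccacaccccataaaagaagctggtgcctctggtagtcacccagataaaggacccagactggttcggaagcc
Il1r2, plus strand, chr1:40085973-40086092: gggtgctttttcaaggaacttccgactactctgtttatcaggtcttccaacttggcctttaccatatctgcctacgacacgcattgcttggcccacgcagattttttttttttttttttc

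A forward TATA box that starts 40 to 20 bases before the annotated start was present in Il1a and Il1b and in no other member window. Such a box was found in 655 of all 32851 RefSeq promoter windows (1.99%) and in 2 of the 16 windows of the 10 members. Il1r2 held none of the 5 motifs searched in its window of 300 bases (250 before the start and 50 after it), nor did Il1rap, which was not called. A match is only a description of the letters, and binding was not measured.

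Of the 9 measured members, 3 exceeded their control-immunized signal at least 2-fold after GPI immunization, and 0 were at least 2-fold lower. The 3 were the ligands Il1f9 and Il1b and the decoy receptor Il1r2. Such a call also needed the higher of both signals to reach 50.2, the 50th percentile of all signals, which 6961 genes did. Among all 12393 measured genes, 155 (1.25%) were called higher by this rule and 31 (0.25%) lower. The median log2 ratio was 0.59 over the 5 ligands and 0.62 over the 4 measured receptor chains, against 0.05 over all genes. The ligand median is the value of Il1a, whose control-immunized signal was under background. It was 0.55 with that signal raised to the background level and 0.18 with low signals raised to the 50th percentile. The receptor median lies between Il1rap and Il18r1, neither of which was called. It was 0.40 with low signals raised to the 50th percentile and 0.52 with the mean of all probe sets. Of the 9 members, 8 had a ratio above 1, as did 54.2% of all genes. In RNA of a whole organ, more cells of a type and more RNA per cell cannot be told apart.

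Scaling mattered for the counts over all genes, which split 83.3% to higher as deposited, 70.3% after division by the median or quantile normalization, 72.8% after loess centring and 96.2% after division by the hybridization controls. The 3 members called were Il1b, Il1f9 and Il1r2 under each of these scalings. The SD of the log2 ratio between probe sets of the same gene was 0.26 (2538 genes with 2 probe sets above the filter), and that among the 18 probe sets of the hybridization controls was 0.13. Neither holds differences between mice, and the former says little of signals below the filter. The 27 bacterial control probe sets, which should not hybridize to mouse RNA, gave signals of at most 14.1 on the control-immunized array, against 7.2 on the other, and the higher value was taken as the background level for both.

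**Figure D1:**
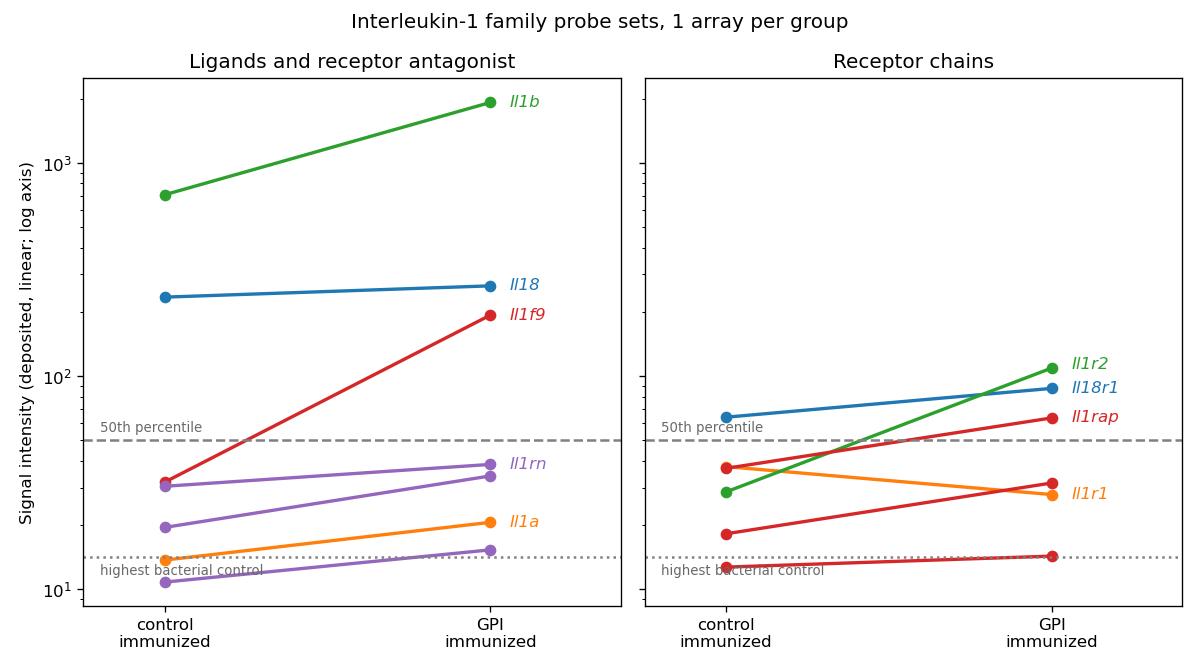
Signal intensity (linear values on a log axis) of each probe set on the control-immunized and the GPI-immunized array, ligands on the left and receptor chains on the right, with 1 line per probe set. The dashed line is the 50th percentile of all signals (50.2) and the dotted line the highest bacterial control signal (14.1); Il1b, Il1f9 and Il1r2 climb most steeply, and Il1r1 alone slopes down.

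Il1b had a signal of 708.3 in control-immunized and 1920.2 in GPI-immunized splenocytes, which is a ratio of 2.71. It lay well above background on both arrays and ranked 53rd from the top among the 6961 genes that reached the filter. Over the scalings tried, its ratio ran from 2.54 to 3.09. Il1b has 1 probe set, as do Il1f9 and Il1r2, so none of these ratios has a second reading.

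Il1f9, the gene of IL-36γ, had a signal of 31.8 on the control-immunized array and 193.2 on the GPI-immunized array. Its ratio of 6.08 ranked 5th among the 6961 genes. The control signal was below the 50th percentile, so the gene reached the filter through the GPI-immunized array only. When signals under the 50th percentile were raised to it, the ratio was 3.85.

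The other ligands among the members lay closer to a ratio of 1. Il18 was measured well above background on both arrays, at 234.4 and 264.8, a ratio of 1.13 that is within 1 SD between probe sets. Il1a, which sits next to Il1b in the genome, gave 13.7 and 20.6. Its control signal was under the highest bacterial control, so its ratio is given only as at least 1.46.

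Il1rn, the receptor antagonist, was read by 3 probe sets, none of which reached the 50th percentile. The brightest gave 30.4 on the control-immunized and 38.5 on the GPI-immunized array, the next 19.5 and 34.0, and the dimmest 10.8 and 15.3. Their ratios were 1.27 and 1.74 for the brighter probe sets and at least 1.09 for the dimmest, so all 3 pointed the same way with a size that depended on the probe set. Relative to Il1rn, the ratio of Il1b was 2.14 times as large with the brightest probe set and 1.55 times as large with the probe set of the highest ratio.

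Among the receptor chains, Il1r2 and Il1r1, which lie side by side on chromosome 1 and bind the same cytokines, went opposite ways as deposited. Il1r2, the decoy, had a signal of 28.6 in control-immunized and 109.0 in GPI-immunized splenocytes, and its ratio of 3.81 ranked 16th. Il1r1, the signalling receptor, had 37.6 and 27.8, a ratio of 0.739, both signals above the bacterial controls and below the 50th percentile. The ratio of Il1r2 was 5.15 times that of Il1r1, with 1 probe set per gene. Il1r2 reached the filter only through the GPI-immunized array, and its ratio was 2.17 with low signals raised to the 50th percentile. Il1r1 had a ratio of 1 with that floor, so the opposite direction rests on signals below it.

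Il1rap, the accessory chain shared by IL-1, interleukin-33 and IL-36 receptors, was read by 3 probe sets. They gave 36.9 and 63.6, 18.2 and 31.5, and 12.7 and 14.3 on the control-immunized and the GPI-immunized array. The brighter probe sets had nearly the same ratio, 1.72 and 1.73, and the dimmest lay about the level of the bacterial controls, with a ratio of at least 1.01. Il18r1, the ligand-binding chain for interleukin-18, gave 64.1 and 87.5, a ratio of 1.37. Neither gene reached 2-fold.

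**Figure D2:**
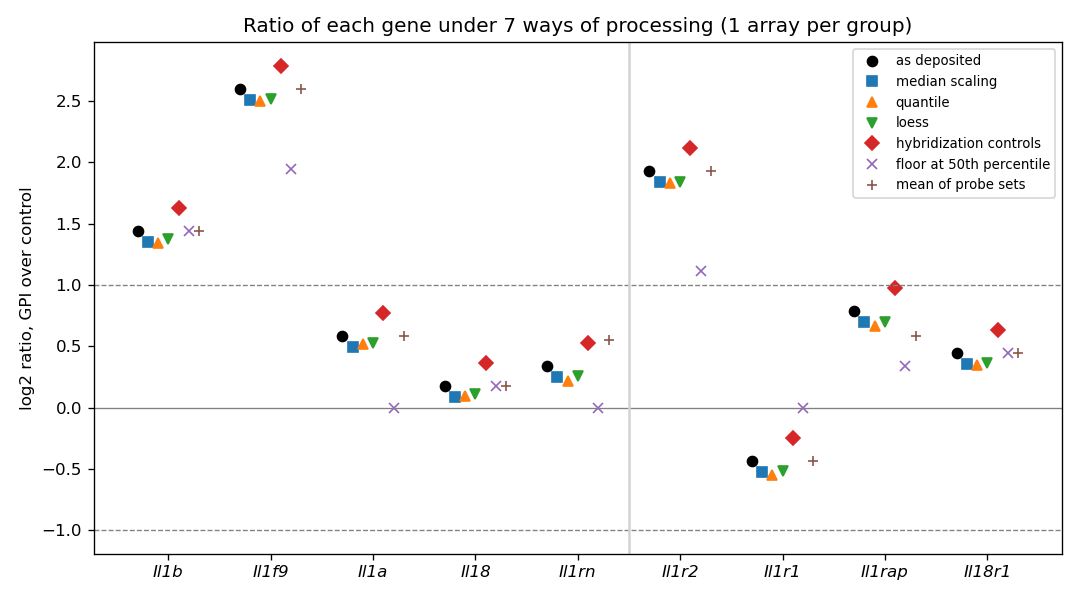
Log2 ratio (GPI-immunized over control-immunized) of the 9 measured genes under 7 ways of processing, ligands left of the vertical line and receptor chains right of it, with dashed lines at a 2-fold ratio in either direction. Il1b, Il1f9 and Il1r2 stay above the upper dashed line throughout, whereas raising low signals to the 50th percentile brings Il1a, Il1rn and Il1r1 to a log2 ratio of 0.

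The other ligands, receptors and inhibitors of the family were examined next. Of 11 listed genes 10 were measured, 2 reached the filter, and 0 were called in either direction. Over all genes 1.25% were called higher and 0.25% lower, so a list of this size would often hold none. Il18rap, the accessory chain of the interleukin-18 receptor, had 41.0 on the control-immunized and 65.4 on the GPI-immunized array (ratio 1.60). Sigirr, a receptor that restrains IL-1 signalling, had 215.2 and 154.6 (ratio 0.718). Both interleukin-18 receptor chains thus had ratios above 1 and below 2.

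The remaining genes of that list were dim. Il18bp, the soluble inhibitor of interleukin-18, had 27.5 and 34.7, and Il1f10, the gene of interleukin-38, had 42.6 and 34.9. Il1f6, the gene of IL-36α, had 17.6 and 10.6. Il1rl2, the receptor chain of the IL-36 cytokines, had 1.8 and 16.4, a ratio of at least 1.16 over background. Il33, Il1f5 (the IL-36 receptor antagonist), Il1f8 (IL-36β) and Il1rapl2 lay at or below the background level of 14.1 on both arrays, at 7.6 and 2.8, 7.8 and 7.5, 1.3 and 6.6, and 0.5 and 3.1 in that order.

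By gene order in RefSeq, 6 receptor genes lie in a row on chromosome 1 (Il1r2, Il1r1, Il1rl2, Il1rl1, Il18r1 and Il18rap) and 6 ligand genes on chromosome 2 (Il1f8, Il1f9, Il1f6, Il1f5, Il1f10 and Il1rn). In each row 1 gene was called higher, Il1r2 at the end of the receptor row and Il1f9 inside the ligand row. The direct neighbours of Il1f9, Il1f8 and Il1f6, had GPI-immunized signals under the background level of 14.1.

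**Figure D3:**
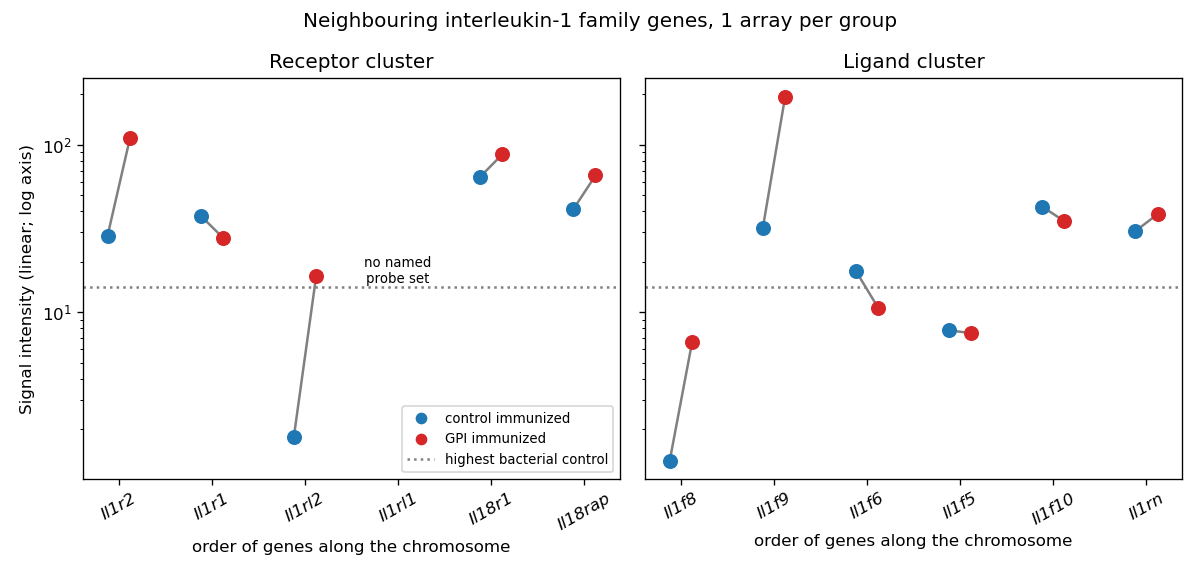
Signal intensity (linear values on a log axis) of neighbouring IL-1 family genes in chromosomal order, not to genomic scale, with the control-immunized array in blue, the GPI-immunized array in red and the highest bacterial control (14.1) as a dotted line. Il1r2 and Il1f9 have the steepest lines among the genes above the dotted line on both arrays, and each stands beside genes with a smaller or opposite difference.

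IL-1β and interleukin-18 are made as inactive precursors and cut by caspase-1 inside an inflammasome, and neutrophil serine proteases can cut IL-1 family precursors outside the cell. Of 18 listed genes of this machinery 14 were measured, and the median log2 ratio was 0.26. Of the 14, 3 were called higher and 0 lower, where 1.25% of all genes were called higher and 0.25% lower. Those called were Ctsg (cathepsin G, 370.4 on the control-immunized and 1126.3 on the GPI-immunized array, ratio 3.04), Prtn3 (proteinase 3, 600.1 and 1587.9, ratio 2.65) and Mefv (pyrin, 75.6 and 162.9, ratio 2.15). Elane, neutrophil elastase, had 920.4 and 1635.9 (ratio 1.78 as deposited and 1.67 to 2.02 over the scalings). Ctsg, Prtn3 and Elane are also in the list of neutrophil markers below.

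Casp1, the protease itself, was not called and had 302.5 on the control-immunized and 233.8 on the GPI-immunized array (ratio 0.773). Nor were its adaptor Pycard, with 518.3 and 658.1 (ratio 1.27), and the sensor Nlrp3, with 45.3 and 52.7 (ratio 1.16). Aim2, a sensor of DNA in the cytosol, had 117.9 and 71.0 (ratio 0.602). Nlrp1a, Nlrp1b, Nlrc4 and Gsdmd are not analysed here.

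Downstream of the receptors, 23 of 28 listed signalling genes were measured and 0 were called in either direction as deposited. Over all genes 1.25% were called higher and 0.25% lower, so a list of this size would often hold none. Irak2, Irak3, Irak4, Chuk and Nfkb1 are not analysed here. The median log2 ratio of the measured signalling genes was -0.05 as deposited, against 0.05 over all genes. It was -0.14 to -0.11 after median, quantile or loess scaling. Division by the hybridization controls gave 0.14, against 0.24 over all genes. In each of these settings the list lay below the median of all genes. Myd88, the adaptor of IL-1 and Toll-like receptors, had 242.9 and 471.9, a ratio of 1.94 as deposited and 1.82 to 2.21 over the scalings. Of the scalings, only division by the hybridization controls had it called higher. Rel had 104.4 and 67.3 (ratio 0.645) and Tab3 433.5 and 294.6 (ratio 0.680). Traf6, the ubiquitin ligase below MyD88, had 63.8 and 40.8 (ratio 0.639), but its probe sets differed in direction, with ratios up to 1.94. Ikbkg likewise gave 0.671 with its brightest probe set and up to 1.20 with another. Ikbkb gave 0.965 with its brightest probe set and up to 3.19 with another. Mapk14 gave 1.15 with its brightest, and its probe sets ran from 0.481 to 2.23. These ranges take no account of the filter.

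Genes that IL-1 can induce, many of which other cytokines induce too, were measured for all 29 listed, with 4 called higher and 0 lower. The shares over all genes were 1.25% higher and 0.25% lower. The median log2 ratio was 0.18 over all 29. Over the 14 that reached the filter it was 0.11, against 0.06 over all genes that did. Cxcl2, a neutrophil chemoattractant, had 53.0 on the control-immunized and 228.0 on the GPI-immunized array (ratio 4.30). Ier3, an early response gene of nuclear factor-κB, had 59.2 and 168.4 (ratio 2.84). Mmp9, a gelatinase, had 146.2 and 477.3 (ratio 3.26, and 5.40 with another probe set), and Lcn2, an iron-scavenging granule protein, had 2071.0 and 4438.3 (ratio 2.14). Both are stored in neutrophil granules and stand in the neutrophil list as well. Ptgs2, the inducible cyclooxygenase, had 48.7 and 85.7 (ratio 1.76) with its brightest probe set and a ratio of 3.53 with another. Many genes of the list were dim, with 13 at or below the background level of 14.1 on both arrays, Il6 among them at 7.2 and 9.4.

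Marker genes of the cells in the spleen also differed between the arrays. All 19 measured neutrophil markers of 25 listed had ratios above 1, from 1.12 for S100a9 to 3.28 for Mmp8, with 11 called higher as deposited and 10 to 14 over the scalings. Their median log2 ratio was 1.10, and none lay at or below the background level. The summed signal of these markers, to which the brightest contribute most, was 36930.2 on the control-immunized and 55448.8 on the GPI-immunized array (ratio 1.50). The other 8 did not reach 2-fold as deposited. The ratio of Il1b lay within the range of these markers. Those of Il1f9 (6.08) and Il1r2 (3.81) were above it with the brightest probe set of each gene, but another probe set of the marker Mmp9 had a ratio of 5.40, and with low signals raised to the 50th percentile Il1r2 had 2.17. The part of neutrophil number in the IL-1 family ratios was not tested.

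Of 16 measured monocyte and macrophage markers, 12 had ratios above 1, and so did 11 of the 13 that reached the filter. As deposited, 2 were called higher (Cd14, 79.2 and 390.4, ratio 4.93, and Cd5l, 119.5 and 338.8, ratio 2.84) and 0 lower. Division by the hybridization controls gave 4 called higher. The median log2 ratio of these markers was 0.25, and their summed signals were 13242.7 and 17547.6. Markers of the lymphocytes that fill the spleen lay lower on the GPI-immunized array. The median log2 ratio was -0.56 over 13 T cell markers and -0.51 over 11 B cell markers, and their summed signals had ratios of 0.700 and 0.753. As deposited, 1 gene of each was called lower, Txk (84.5 and 36.8, ratio 0.436) and Fcer2a (1437.2 and 705.5, ratio 0.491), the latter no longer with the hybridization controls. Cd3e was called lower too after loess centring, quantile normalization or division by the median. Defining genes of both were well above background on both arrays, with Cd3e at 241.7 and 123.1 and Cd79a at 2961.3 and 2076.5. The part of these shifts in the family's ratios was not tested either.

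**Figure D4:**
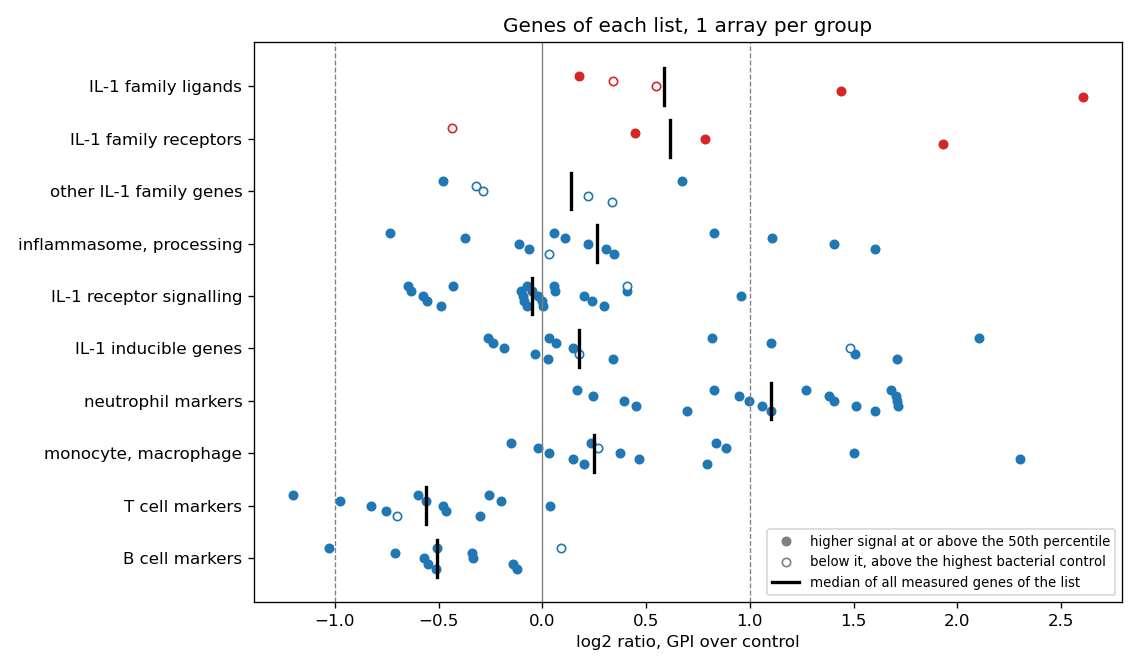
Log2 ratio (GPI-immunized over control-immunized) of the genes of each list, with signals raised to the highest bacterial control, filled where the higher signal reached the 50th percentile and open where it did not; genes at or below 14.1 on both arrays are left out. Black bars are the median of all measured genes of a list as deposited (0.59 for ligands, 0.62 for receptors, 1.10 for neutrophil markers), dashed lines mark a 2-fold ratio, and Il1f9 and Il1r2 are the red points farthest right.

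The genes nearest in ratio to each called member were taken among genes of similar mean signal (within 0.5 on the log2 scale), as a likeness over 2 arrays only. For Il1f9, among 1344 genes, these were Clec4e (5.81), a receptor of myeloid cells for mycobacterial glycolipid, Cxcl2 (4.30) and Arg2 (4.28), a mitochondrial arginase. For Il1r2, among 1068 genes, they were Mapk13 (3.53), Arg2 (4.28) and Cxcr2 (3.26), the receptor through which neutrophils respond to Cxcl2. For Il1b, among 554 genes, they were Igkv6-14 (2.72), an immunoglobulin light chain segment, Prtn3 (2.65) and Ifitm2 (2.78), an interferon-induced membrane protein. Cxcr2 itself had signals of 23.5 and 76.6 and so, like Il1r2, was below the 50th percentile on the control-immunized array.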

How the data were processed

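The authors deposited 1 linear signal intensity per probe set and array, without replicates (1 array per group). The software is named only as gene expression software. The sources used here do not give the summarization, scaling or detection calls. The labels describe labelled cDNA from a whole-transcript kit, and the study's methods biotinylated cRNA. The number of arrays limits the precision.

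Of 22626 probe sets other than the 64 controls, 20380 had 1 symbol, 691 several and 1555 none. For each gene its probe set of highest mean log2 signal was used, and 3 signals of 0 were set to 0.1. Ratios were formed without further scaling (array medians 48.65 and 51.8). A gene was called at 2-fold where its higher signal reached the 50th percentile of all signals (50.2). A ratio with 1 signal under the highest bacterial control (14.1) is a bound against that signal.

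The members and gene lists were chosen with earlier results of these data known. The text names every member, all other listed IL-1 family genes that were measured, Casp1, Nlrp3, Pycard and Myd88, up to 5 genes per list furthest from a ratio of 1, and for each called member the 3 genes nearest in ratio. Il6, S100a9, Ikbkb and Mapk14 lie outside this rule and were named after their values were seen. Genes without a measurement are named for the processing and signalling lists. Alternatives were division by the median, quantile normalization, loess centring, 3 floors for low signals, the mean of all probe sets, leaving out shared probe sets, other filters and a 3-fold threshold. All 13 member probe sets matched RefSeq (GRCm38.p6) by gene ID and symbol. Motifs were searched on both strands of 300-base promoter windows. Besides those spelled out in the report, these were the nuclear factor-κB consensus (8.46% of all windows, 1 of 16 member windows) and the C/EBP motif TTGCNNAA (10.8%, 2 of 16). TATAAA on either strand was in 13.6% and 4 of 16, GAGGAA in 28.3% and 4 of 16, and TGANTCA in 7.81% and 2 of 16. The steps were tested on simulated data. Python 3.11.15, numpy 2.4.6, pandas 2.3.3, statsmodels 0.14.6 and matplotlib 3.10.9 were used.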

Additional observations from a re-analysis of the deposited data

How the results depend on the processing

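No paired analysis was possible because each group has 1 array. Of 81 values of single members under the alternatives, 75 moved by less than the SD between probe sets and 6 by more, all 6 with a floor under low signals at the 50th percentile, which also lowered the median log2 ratio of the ligands to 0.18. No direction reversed. Il1b, Il1f9 and Il1r2 were the members called under every alternative except a filter at the 75th percentile (219.8), which left 1 ligand, Il1b, and 0 receptors, and a 3-fold threshold, which left 1 ligand, Il1f9, beside Il1r2. Over all genes, 155 higher and 31 lower became 1266 higher and 1105 lower with no filter, 70 higher and 5 lower under that stricter filter, and 35 higher and 3 lower under the 3-fold threshold. The lower count was 47 after division by the median or quantile normalization and 11 with that floor for low signals. Division by the hybridization controls, chosen after seeing the data, gave 253 higher and 10 lower and moved the median log2 ratio of all genes from 0.05 to 0.24. These 18 control probe sets had a median ratio of 0.873 (0.759 to 1.16). For dim members, signal over background limits the ratio, since Il1a and 1 probe set each of Il1rn and Il1rap had a control-immunized signal under the highest bacterial control.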

Other observations

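Among the remaining marker lists, 1 of 10 measured basophil and mast cell markers was called higher, Hdc, the histidine decarboxylase that makes histamine (92.4 on the control-immunized and 251.5 on the GPI-immunized array, ratio 2.72). The list's median log2 ratio was -0.04 over all 10 and 0.39 over the 5 that reached the filter. Platelet and megakaryocyte markers had a median of 0.50 over 7 genes with 0 called in either direction. The median was -0.15 over 10 NK cell markers, -0.23 over 7 dendritic cell markers and -0.09 over 7 erythroid markers, again with 0 called. The shares over all genes were 1.25% higher and 0.25% lower, so short lists would often hold none.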
